A study of Mus musculus with 4 samples.

Results

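Early round spermatids are the haploid germ cells that have just completed the meiotic divisions. Here they were read from droplet single-cell transcriptomes of dissociated mouse testis, and 6620 of 57727 kept cells (11.5%) were assigned to them. The cells were selected on their own measured values, the levels of marker genes. Kept barcodes had 200 genes or more and a mitochondrial share of 20% or less. Each cell was scored as the mean log-normalised level of 7 marker sets, and the scores were standardised over all kept cells. A cell was taken as an early round spermatid when the set of Tssk5, Lurap1, Spag6 and Smco4 had the highest of its 7 standardised scores and that score was above 1.

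The study compared the testis of mice fed a high-fat diet (HFD, 2 libraries) with that of mice fed a normal diet (ND, 2 libraries). Counts are of unique molecular identifiers (UMIs), which mark single captured transcripts. Strain, age, genotype and the length of feeding are not given in the sources used here. Nothing states that the libraries of a diet came from separate mice or how many testes each pooled, so p-values measure only the spread between these libraries, which may be technical.

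Round spermatids are transcriptionally active. They build the acrosome, the enzyme-filled vesicle of the sperm head, from Golgi vesicles, and they start the flagellar axoneme. The regulator CREM is known for activating post-meiotic genes at this step. The X and Y chromosomes are silenced during male meiosis and regain part of their activity in round spermatids. Protamines and transition proteins, which replace histones, are made later, in elongating cells.

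The 4 libraries held 13561 to 15290 barcodes and 143748262 to 154221188 UMIs each. Of the kept barcode sequences, 337 occurred in more than 1 library, and 6 occurred in early round spermatids of more than 1 library. The early round spermatids of HFD 1 gave 20164738 UMIs, those of HFD 2 19784095, those of ND 1 24592608 and those of ND 2 23995773, and all diet comparisons of genes rest on these sums. Their median depth per cell was 12089 and 10380 UMIs in the HFD libraries and 10426 and 10917 in the ND libraries. HFD 1 was the deepest and HFD 2 the shallowest, so the diets overlapped (exact permutation test, two-sided, p = 1.0). Genes detected per cell had medians of 3998, 3731, 3711 and 3788 in the same order, so the diets overlapped here too. The median mitochondrial share was 0.188% and 0.191% in HFD and 0.186% and 0.184% in ND, without overlap (exact permutation test, two-sided, p = 0.33, the smallest the design allows). Its part in the diet differences was not tested. Scrublet called 57, 94, 97 and 124 of these cells doublets (4.07%, 6.43%, 5.07% and 6.73%), and they were kept because the assignment keeps them.

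The cut at a score of 1 fell inside a continuous range. The lowest score of an assigned cell was 1.0007 and the highest score below the cut was 0.9994. There were 174 assigned cells at scores of 1 to 1.1 and 143 cells just outside, at 0.9 to 1. The median score was 2.04 and the highest 4.59. Another 3256 cells scored above 1 but had a higher score for another set, which was the late round spermatid set in 2765 of them. Of the assigned cells, 2829 (42.7%) also scored above 1 for at least 1 other set. The class is therefore a range of cells around a stage and has no sharp edge.

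The genes that chose the cells are given first, as a description without a test. Levels along the classes are UMI counts scaled to the total of the class (CPM), averaged over the 4 libraries. They compare 1 gene between classes, and genes are not ranked against each other by them. Spag6 (chromosome 2, 18694032 to 18750413, GRCm38), of a protein family of the central apparatus of the sperm tail, had 628 CPM in early round spermatids. It had 56.7 CPM in late spermatocytes, 402 in late round spermatids and 64.9 in elongating spermatids. Mouse has the closely related gene Spag6l, so the split of UMIs between the pair is uncertain. Smco4 (chromosome 9, 15493432 to 15545260), which encodes a small membrane protein, had 273 CPM against 22.1, 71.7 and 11.7 in the same neighbouring classes. Lurap1 (chromosome 4, 116132406 to 116151338), an adaptor protein gene, had 188 CPM against 10.5, 97.9 and 10.1. Tssk5 (chromosome 15, 76371952 to 76374938), of the testis-specific serine kinase family, had 74.8 CPM against 2.90, 36.7 and 2.71. All 4 rose sharply after the late spermatocyte class, and Smco4 was the one most restricted to the early round class.

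Genes outside the gate were picked for the same course, so their peak in early round spermatids comes from the selection. Ranked by the lowest, over the 4 libraries, of the ratio to the highest other class, the gene most restricted to early round spermatids among those of at least 100 CPM there was Gm6588 (chromosome 5, 112449426 to 112451738), a predicted protein-coding gene. It had 114 and 110 CPM in the HFD libraries and 115 and 110 in the ND libraries, which was 5.91 to 7.82 times its level in the next class. Prss46 (chromosome 9, 110844506 to 110856522), a serine protease gene, had 377, 374, 385 and 382 CPM, which was 2.89 to 3.32 times the next class. Both genes varied little between the libraries.

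Tmem243, a transmembrane protein gene, had 159 CPM and was 2.37 to 2.69 times its level in the next class, and 4921504E06Rik had 204 CPM at 2.37 to 2.70 times. The ratio was 2.43 to 2.72 for 1700022I11Rik, 2.14 to 2.49 for Fam228b, 2.35 to 2.65 for the processed transcript 8030451A03Rik and 2.03 to 2.24 for Gm19935. Gm5458 (3.17 to 3.75), 1700001F09Rik (2.96 to 3.30) and Gm10376 (2.28 to 2.61) lie in clusters of related gene models on chromosome 14, and the assignment of UMIs to single copies is uncertain. These genes come from the cells that the gate chose, and their restriction was not tested.

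**Figure D1:**
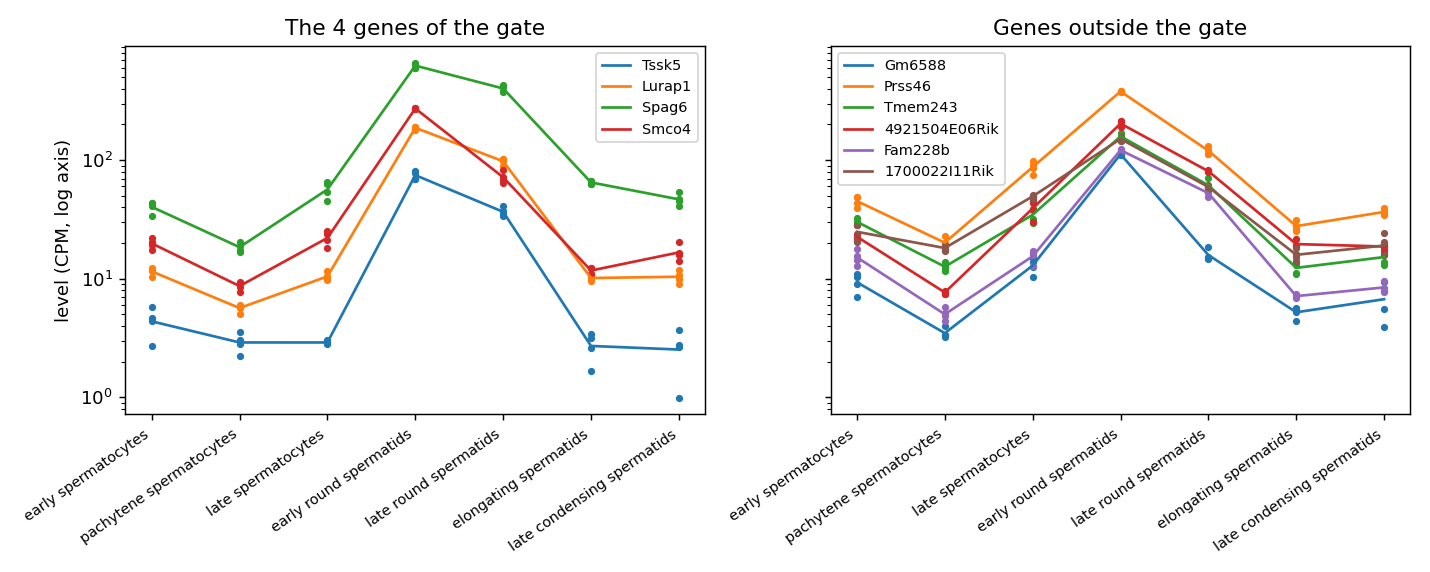
Levels in CPM (log axis) along the 7 gated classes, from early spermatocytes to late condensing spermatids, for the 4 gate genes (left) and 6 genes outside the gate (right); lines join means of 4 libraries and points are single libraries. Every gene shown was highest in early round spermatids. The genes on the right were picked for this, and those on the left chose the cells. The libraries lay close together: Prss46 had 374 to 385 CPM there.

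The upstream sequences of Spag6, Smco4 and Prss46 are shown because these genes rose together at this stage. They come from RefSeq on GRCm38.p6 and give the 250 bases before the annotated start, 5′ to 3′ in the direction of transcription. Capitals mark GTTGCC or its reverse complement, a core of the X-box motif of RFX factors. Spag6 is at chr2:18698772-18699021 (plus strand), Smco4 at chr9:15493182-15493431 (plus strand) and Prss46 at chr9:110844256-110844505 (plus strand). The RefSeq start of Spag6 lies inside the GENCODE gene, and Smco4 has 2 starts in the table, of which the first is shown.
Spag6: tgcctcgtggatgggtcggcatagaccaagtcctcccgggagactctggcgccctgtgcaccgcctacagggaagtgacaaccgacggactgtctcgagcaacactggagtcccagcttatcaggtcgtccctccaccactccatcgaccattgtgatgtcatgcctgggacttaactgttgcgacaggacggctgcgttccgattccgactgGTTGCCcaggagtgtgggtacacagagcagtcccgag
Smco4: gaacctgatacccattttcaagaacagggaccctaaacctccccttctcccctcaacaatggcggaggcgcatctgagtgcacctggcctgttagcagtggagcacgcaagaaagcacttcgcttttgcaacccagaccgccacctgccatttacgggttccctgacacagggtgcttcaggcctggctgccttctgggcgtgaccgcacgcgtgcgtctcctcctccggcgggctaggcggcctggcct
Prss46: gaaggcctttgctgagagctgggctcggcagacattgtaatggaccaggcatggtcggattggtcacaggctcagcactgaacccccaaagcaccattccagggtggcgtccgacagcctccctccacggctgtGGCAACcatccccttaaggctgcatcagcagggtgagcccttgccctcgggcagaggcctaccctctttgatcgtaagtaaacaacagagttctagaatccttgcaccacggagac

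Of 4 gate gene promoters and 9 profile gene promoters in the table, with Smco4 in both sets, 1 of each held the match, at base 214 in Spag6 and, on the other strand, at base 135 in Prss46. Across the table, 3425 of 32851 promoters of the same length (10.4%) hold these letters on either strand. The full cyclic AMP response element, TGACGTCA, was in none of the 4 gate gene and 9 profile gene promoters in the table (3 of the 4 gate genes matched by symbol; Tssk5 had no entry), against 1.55% of all promoters. Its shorter core TGACG, which the full element contains, was found upstream of Tmem243 among these and in 17.8% of all promoters. Over the 40 genes ranked most restricted to early round spermatids, which include Smco4 and Lurap1 and of which 32 matched with 39 promoters, the full element was in 2 (5.13%; Dctn3 and Med21) and TGACG in 14 (35.9%), with no test of these shares. The letters AACTGNC, a MYB motif, were upstream of 8030451A03Rik, Fam228b and Gm5458 and in 10.6% of all promoters. Over the same 39 promoters GTTGCC and AACTGNC were each in 5 (12.8%). A match is a description of letters in this window.

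Of 13 gene lists, some of which share genes with the gate sets of other stages, 10 had a summed level in early round spermatids between those of late spermatocytes and late round spermatids. The other 3 lay above both: the lipid list had 5506, 5753 and 5694 CPM in late spermatocytes, early and late round spermatids, the antioxidant list 8526, 8920 and 8726, and the ubiquitin and proteasome list 5871, 6142 and 5614. The 31 acrosome and sperm-egg fusion genes summed to 5977 CPM in late spermatocytes, 9415 in early round spermatids (9242 to 9560 over the libraries) and 11931 in late round spermatids. Acrv1, an acrosomal matrix protein gene, had 58.7, 444 and 609 CPM in these classes. Spaca1, whose product sits in the acrosomal membrane, had 78.9, 671 and 899 CPM. 3 acrosomal genes were highest in early round spermatids: Zpbp, for zona pellucida binding, Spam1, the sperm hyaluronidase, and Tmem95, needed for sperm-egg fusion.

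Crem, the post-meiotic activator, was itself highest in early round spermatids, with 614 CPM against 327 in late spermatocytes and 563 in late round spermatids. By library it had 602, 604, 633 and 616 CPM in HFD 1, HFD 2, ND 1 and ND 2. Papolb, a testis poly(A) polymerase gene, and Tnrc18 peaked there too among the 23 regulators in the files, 7 of which peaked in late round spermatids. Of 40 genes of the axoneme and of intraflagellar transport, 10 peaked in early round spermatids, including the tektins Tekt1, Tekt3 and Tekt4, filament proteins of flagellar doublet microtubules, and the radial spoke gene Rsph9.

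Of all tested genes, 16.2% were highest in early round spermatids among the gated classes. Among 46 genes of lipid handling 8 peaked there, near that background, including Fdft1 and Sqle, which encode enzymes of cholesterol synthesis, and Srebf2, which encodes a regulator of that pathway. Fdft1, squalene synthase, had 333 CPM against 296 in late spermatocytes and 259 in late round spermatids. Of 33 antioxidant genes 0 peaked there, and of 26 genes of protein folding in the endoplasmic reticulum (ER) 0 did. Differences between the lists were not tested. The ER list summed to 4400 CPM in late spermatocytes and 2743 in early round spermatids, and the apoptosis list to 1416 and 657 CPM.

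Meiotic transcripts were still present. The meiotic prophase list summed to 2312 CPM in late spermatocytes and 2111 in early round spermatids, below the 3349 CPM of pachytene cells. Sycp3, a synaptonemal complex protein gene, had 453, 273 and 80.7 CPM in pachytene, late spermatocyte and early round cells, while Syce3 (147, 99.7 and 300 CPM) and Tex15 (6.31, 14.9 and 117 CPM) were highest in early round spermatids. The list of transition proteins, protamines and tail sheath genes summed to 13980, 21313 and 40429 CPM in late spermatocytes, early and late round spermatids, and to 173661 CPM in elongating cells. The gate chose the cells and some lists share genes with gate sets, so these levels describe the class and do not test its label. A part of the cells lay near each neighbouring stage.

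Markers of other cells were low in every library. Summed over 6 genes, Leydig markers stood at 59.96, 41.8, 44.2 and 45.8 CPM in HFD 1, HFD 2, ND 1 and ND 2, and 8 Sertoli markers at 24.6 to 33.5 CPM. Macrophage markers (7 genes) ranged from 4.15 to 8.17 CPM, fibroblast and peritubular markers (6) from 3.03 to 5.25, endothelial markers (4) from 5.33 to 6.54, lymphocyte markers (7) from 0.792 to 1.52 and spermatogonial markers (8) from 35.3 to 40.1. The 4 haemoglobin genes gave 1 or 2 UMIs in all per library. Col1a2 was at 0 in HFD 2, Col3a1 in ND 1, Cdh5 in HFD 1 and ND 2, and Sall4 in HFD 1, ND 1 and ND 2. The summed Sertoli level was lower and the lymphocyte level higher in both HFD than in both ND libraries, and the other sets overlapped.

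The share of transcripts from the sex chromosomes was not used by the gate. X-linked genes made up 0.0938% of UMIs in pachytene cells, 0.180% in late spermatocytes, 0.908% in early round and 1.5% in late round spermatids. Y-linked genes made up 0.0026%, 0.00705%, 0.0467% and 0.0469% in the same classes, so the Y share reached its late round level already in early round spermatids while the X share did not.

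Within the class, the X share followed the neighbouring stage. In cells whose second-highest set was the late round set it was 1.01%, 0.997%, 1.02% and 1.03% in HFD 1, HFD 2, ND 1 and ND 2. In cells with the late spermatocyte set second it was 0.724%, 0.717%, 0.748% and 0.744%. The 4 values of the former all lay above the 4 of the latter.

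Over all early round spermatids the X share was 0.889% and 0.875% in HFD 1 and HFD 2 and 0.930% and 0.937% in ND 1 and ND 2. The diets did not overlap, with a difference of -0.05 percentage points and the smallest p the design allows (exact permutation test, two-sided, p = 0.33). The difference was -0.02 points in cells with the late round set second and -0.03 points in those with the late spermatocyte set second. The Y share was 0.0450% and 0.0449% in HFD and 0.0476% and 0.0492% in ND (exact permutation test, p = 0.33).

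**Figure D2:**
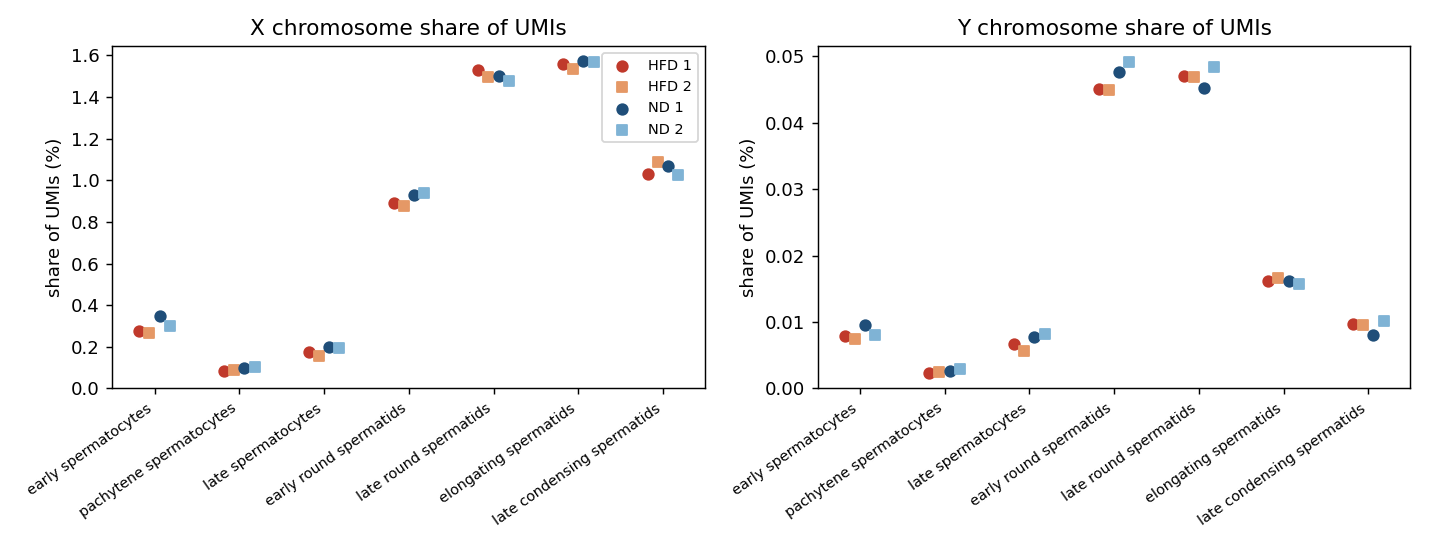
Share of UMIs (%) from X-linked (left) and Y-linked genes (right) in the 7 gated classes; each point is a library, HFD in red and orange, ND in dark and light blue. In early round spermatids the X share was 0.875% to 0.937%, between late spermatocytes and late round spermatids, and both HFD points lay below both ND points.

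Multicopy and other sex-linked spermatid genes rose with these shares, from 114 CPM summed in late spermatocytes to 876 in early round and 2150 in late round spermatids. Cypt1, an X-linked cysteine-rich perinuclear theca gene, had 30.4, 243 and 623 CPM. Zfy1, a Y-linked zinc finger gene, had 1.1, 8.6 and 8.2 CPM, and Slxl1, an X-linked gene of the Slx family, had 3.1, 15.9 and 18.8 CPM. Counts of this list are uncertain where near-identical copies share UMIs. Ssty1 had less than 0.1 CPM in every class.

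Early round spermatids made up a smaller share of the HFD libraries. The share was 10.4% (exact Clopper-Pearson 95% interval 9.84 to 10.9) in HFD 1 and 10.2% (9.69 to 10.7) in HFD 2, with 1402 and 1462 cells. It was 12.6% (12 to 13.1) in ND 1 and 12.6% (12.1 to 13.2) in ND 2, with 1914 and 1842 cells. Both HFD values lay below both ND values, at 10.3% ± 0.119 (SD, n = 2) against 12.6% ± 0.0569. The log2 ratio of HFD over ND was -0.29 (SE 0.043; edgeR quasi-likelihood test, adjusted p = 0.00074 by Benjamini-Hochberg over 8 classes). The intervals cover counting error only.

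The neighbouring classes moved in different directions. Late spermatocytes were higher in HFD (15.3% ± 0.877 against 10.6% ± 0.121; log2 ratio 0.53) and late round spermatids lower (9.37% ± 0.213 against 11.8% ± 0.160; -0.33), both past the edgeR threshold. Pachytene cells rose by 0.34 and early spermatocytes by 0.22, elongating spermatids fell by 0.16, and late condensing spermatids were at -0.08, which was not called (adjusted p = 0.277). Shares add to a fixed total, so a higher share of some classes lowers the others.

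With a gate above 2 the ratio for early round spermatids was -0.50. When cells were assigned on counts thinned to 2000 UMIs the ratio was -0.44, with 453 early round spermatids and 12323 of all kept cells too shallow to enter. Of all kept cells this left out 2122 of 13543 in HFD 1, 2641 of 14355 in HFD 2, 3972 of 15248 in ND 1 and 3588 of 14581 in ND 2. Of early round spermatids it left out 68, 89, 158 and 138 in the same order. The loss was larger in ND, and its part in the ratio was not tested. The exact permutation test of the shares cannot go below 0.33.

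**Figure D3:**
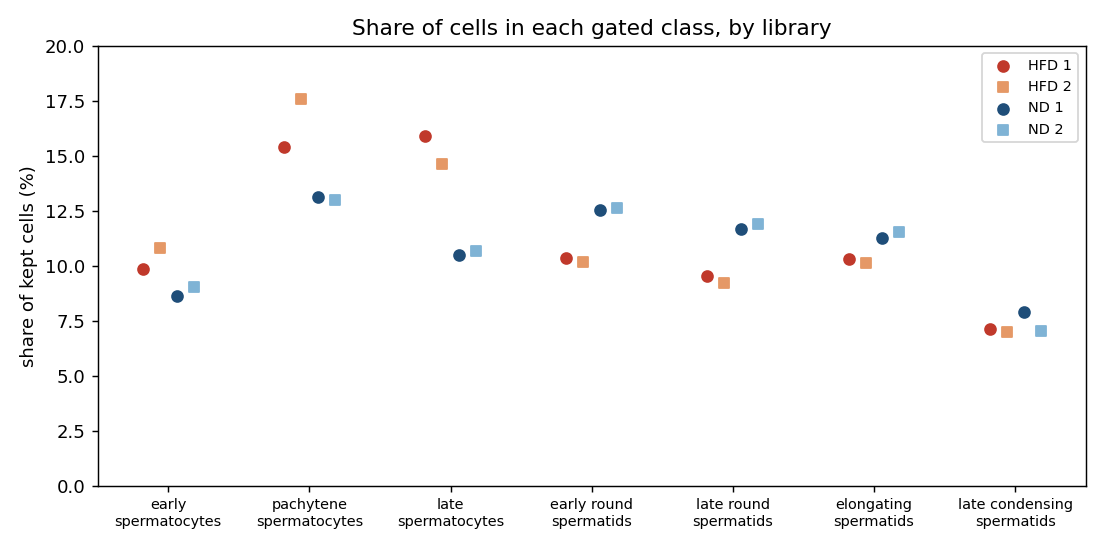
Share of kept cells (%) in each gated class; each point is a library, HFD in red and orange, ND in dark and light blue. Early round spermatids were 10.2% to 10.4% in HFD and 12.6% in ND, while late spermatocytes were higher in HFD.

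The early round class also differed in its inner make-up. The second-highest set was the late round set in 3809 cells (57.5%) and the late spermatocyte set in 1836 (27.7%). By library, the late round set came second in 52.4% of the cells of HFD 1, 53.8% of HFD 2, 60.4% of ND 1 and 61.3% of ND 2. The late spermatocyte set came second in 33.0%, 30.7%, 24.6% and 24.7%. The diets did not overlap in either share. These scores helped to choose the cells, so they are given as a description without a test. The median standardised late round score was 0.449, 0.488, 0.638 and 0.676, and the median late spermatocyte score was 0.129, 0.0992, -0.026 and -0.0126, in the same order of libraries. The gene results that follow come from cells with these scores.

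For single genes, UMIs of the early round spermatids were summed per library and the sums were compared between the diets. From here, CPM of the diet comparison refer to the tested genes only and include a normalisation factor. Levels compared between classes, set sums, levels outside the classes and levels of the interaction results stay scaled to the total of those cells. Of 17117 genes tested, edgeR called 675 at an adjusted p under 0.05 (3.94%), 213 higher in HFD (1.24%) and 462 lower (2.70%). At an unadjusted p under 0.05 there were 3002. Most changes were small, with a median size of 0.23 on the log2 scale among the called genes, and 14 exceeded 1 in either direction. Libraries of the diets did not overlap for 3966 genes with higher (23.2%) and 4047 with lower values in HFD (23.6%).

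The count depended on settings and on single libraries. It was 331 without HFD 2, 1491 without ND 1 and 1035 without ND 2. It was 27 with a gate above 2, 27 within cells that had the late round set second and 5 within cells that had the late spermatocyte set second, each on fewer cells, while DESeq2 called 276 and edgeR without the filter on low counts called 2. Without normalisation factors 274 were higher and 316 lower.

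Calls were split by the gated class in which a gene had its highest mean level here. Of the 462 genes called lower in HFD, 415 (89.8%) had their highest level in late round, elongating or late condensing spermatids, classes that hold the highest level of 26.9% of the tested genes. Of the 213 called higher, 191 (89.7%) were highest in a spermatocyte class, against 56.9% of the tested genes. Genes highest in early round spermatids themselves gave 11 higher and 34 lower calls out of 2766. They were 16.2% of the tested genes but 5.16% of the higher and 7.36% of the lower calls, and 1.63% of them were called, against 3.94% of all tested genes. The 34 include Spag6 and Tssk5, which chose the cells.

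Among genes of at least 20 CPM in early round spermatids, the median log2 ratio was -0.10 for the 1557 highest in later spermatids and 0.03 for the 3206 highest in spermatocytes. Within cells that had the late round set second these medians were -0.05 and 0.02, within cells that had the late spermatocyte set second -0.03 and 0.0028, and with a gate above 2 they were -0.04 and 0.02. The part that the cells' position between stages had in single genes was not tested.

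**Figure D4:**
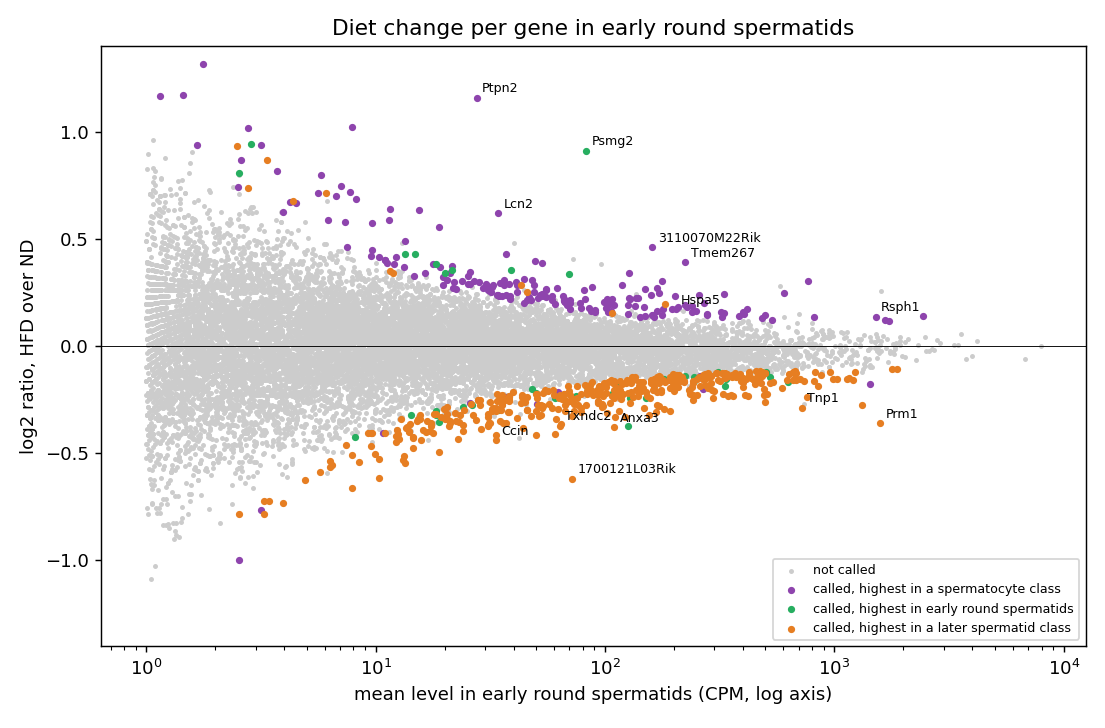
Log2 ratio of HFD over ND against mean level (CPM, log axis) for each tested gene of at least 1 CPM in early round spermatids; called genes are coloured by the class in which they are highest. Of the called genes, 415 of 462 lower ones are highest in later spermatids and 191 of 213 higher ones in spermatocytes, and Ptpn2 and Psmg2, at log2 ratios of 1.16 and 0.91, have the largest ratios among genes of at least 20 CPM.

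Ptpn2 and Psmg2 changed most among genes of at least 20 CPM. Ptpn2 (chromosome 18, 67665511 to 67724595), a protein tyrosine phosphatase gene, had 37.3 and 39.0 CPM in HFD and 16.9 and 17.3 in ND, which is 1.16 on the log2 scale (SE 0.07; edgeR adjusted p = 2.0e-08). Psmg2 (chromosome 18, 67641599 to 67654162), a chaperone of proteasome assembly, had 109 and 108 CPM in HFD and 59.97 and 55.2 in ND, which is 0.91 (SE 0.05; edgeR adjusted p = 8.9e-09). Both were called higher in all 6 other gated classes too, at ratios of 0.89 to 1.11 for Ptpn2 and 0.89 to 1.32 for Psmg2. They were the only 2 genes called when edgeR tested against a change of 1.5-fold.

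Of the other named genes that rose, 3110070M22Rik (184 and 189 CPM in HFD, 137 and 134 in ND; 0.46) and Tmem267 (253 and 256 against 192 and 196; 0.39) overlap on chromosome 13, so UMIs of the pair cannot be told apart with certainty. The former was also called higher in every other gated class, at ratios of 0.44 to 0.64. Tmem267 was called higher in all but late condensing spermatids, at ratios of 0.29 to 0.53, and was at 0.22 in those. Asb4, a substrate adaptor of ubiquitin ligases, had 40.8 and 44.3 CPM in HFD and 32.4 and 30.8 in ND. Anxa2, a calcium-dependent membrane-binding annexin, had 46.5 and 41.0 against 34.1 and 34.3 CPM, and among the gated classes it is highest in early round spermatids. Cells outside these classes had 64.7 CPM. Mfsd6, a transporter-like gene that is also highest there among the gated classes, had 24.9 and 23.3 against 18.5 and 19.1 CPM. The antisense transcript Taco1os (0.40), 4930447N08Rik (0.39), the thioesterase gene Them4 (0.37) and Entpd6 (0.35), which encodes a nucleotide-hydrolysing enzyme, rose as well. The counting of Taco1os apart from its partner is uncertain, since use of strand is not stated. None of these moved as far as Ptpn2 or Psmg2.

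Lcn2, which encodes a secreted iron-siderophore carrier, had 42.6 and 40.4 CPM in HFD and 27.5 and 26.6 in ND (0.62; edgeR adjusted p = 3.7e-05). Called doublets held 40.2% of its UMIs, against a median of 7.04% over the named genes, and single cells gave 208 of 862 UMIs in HFD 1 and 411 of 806 in HFD 2. Its level in cells outside the 7 classes was 2024 CPM. With a gate above 2 the ratio was -0.65.

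The named genes that fell were led by 1700121L03Rik (chromosome 1, 125190282 to 125197455), a long intergenic non-coding RNA gene, with 56.4 and 57.0 CPM in HFD and 89.7 and 84.4 in ND (-0.62; SE 0.05; edgeR adjusted p = 2.1e-06). Clec4a2, a C-type lectin gene, had 51.3 and 52.2 against 72.5 and 65.2 CPM (-0.41), and Anxa3, another annexin gene, 94.1 and 96.5 against 125 and 122 CPM (-0.38). These are highest in late round spermatids but were already substantial in early round ones. Tmsb4x, the X-linked gene of an actin-sequestering peptide, had 113 and 107 against 137 and 148 CPM (-0.37). Its mean level was 126 CPM in early and 125 CPM in late round spermatids, and 432 CPM in cells outside the gated classes.

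The other named genes that fell were low here and much higher later. Ccin, calicin of the sperm head cytoskeleton, had 30.3 and 26.7 CPM in HFD and 39.8 and 37.4 in ND (-0.44), and its mean level was 33.5 CPM in early and 266 CPM in late round spermatids. Itsn2, an endocytic scaffold gene (-0.43), Tepp (-0.41), Smim23 (-0.41), the actin regulator Phactr1 (-0.40), Gm47429 (-0.39), 1700056E22Rik (-0.38) and Klhl11 (-0.37) showed ratios of similar size, and all but Klhl11 were at least 4 times higher in late round spermatids.

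The gate genes are given without a test, because they chose the cells. Tssk5 had 68.9 and 69.0 CPM in HFD and 82.6 and 79.2 in ND, and Spag6 had 596 and 590 against 660 and 669. Lurap1 (180 and 189 against 194 and 188) and Smco4 (269 and 269 against 279 and 275) differed by less. Genes of the 7 sets are part of the counts over all tested genes, where their calls are no result for the same reason.

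Among acrosome genes, 8 of 31 tested fell and 1 rose, where 2.70% of all tested genes fell and 1.24% rose, with a median log2 ratio of -0.08, against 0.001 over all tested genes. Those that fell included Izumo2, of the family of the sperm-egg fusion protein (276 and 281 CPM in HFD, 317 and 326 in ND; -0.21), and Sun5, which anchors the sperm head to the tail (166 and 160 against 191 and 187; -0.21). Hyal5, a sperm hyaluronidase gene, had 99.2 and 107 against 122 and 133 CPM (-0.30), and its neighbour Spam1 -0.16. Spaca9 (-0.17), Eqtn (-0.15), Spaca1 (-0.11) and Ccin made up the rest. All that fell but Spam1 are highest in late round or elongating spermatids. Of all tested genes highest in these classes, 8.75% and 9.54% were called in either direction. Spata16, needed for acrosome formation, had 285 and 291 CPM in HFD against 262 and 240 in ND (0.20), and it is highest in late spermatocytes. Spink2, an acrosin inhibitor gene, had 1591 ± 21.8 against 1584 ± 14.6 CPM (SD, n = 2).

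Of 22 regulators tested, 4 fell and 0 rose (18.2% called, against 3.94% of all tested genes). Hmgb4, an HMG-box gene of spermatids, had 465 and 468 CPM in HFD and 548 and 543 in ND (-0.22). Fhl5, which encodes the CREM coactivator ACT, had 187 and 188 against 212 and 211 (-0.18), and Spz1 (-0.13) and Gtsf1l (-0.12) were the others. The RNA-binding gene Ybx2 (898 and 899 against 895 and 911 CPM) and the TATA-box-binding-like factor gene Tbpl1 (1006 and 991 against 951 and 980) were not called. All 4 called genes are higher in late round than in early round spermatids.

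The largest share of calls among the lists fell to transition proteins, protamines and tail sheath genes, of which 12 of 25 fell and 0 rose (median -0.16), against 2.70% of all tested genes that fell. Prm1, protamine 1, had 1559 and 1223 CPM in HFD and 1622 and 1945 in ND (-0.36), so that HFD 1 was close to ND 1 and HFD 2 lowest. Prm2 (-0.28) and Tnp1 (-0.29) showed the same order of libraries. The level of Prm1 in late spermatocytes, a stage before protamines are made, was 1399 CPM and close to the 1584 CPM of early round spermatids, and called doublets held 24.6% of its UMIs here. The elongating spermatid gate set contains Tnp2, which is also in this list. The summed level of the set was 795, 627, 785 and 903 CPM in HFD 1, HFD 2, ND 1 and ND 2. That is the order of Prm1 save that HFD 1 and ND 1 change places. With called doublets left out, all 675 called genes, Prm1, Prm2 and Tnp1 among them, kept their sign, and 591 of the 675 were still called. The part of free RNA and of uncalled doublets in the protamine values was not tested.

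Hils1, a spermatid linker histone gene, had 1092 and 1102 CPM in HFD and 1231 and 1202 in ND (-0.15), with 128 CPM in late spermatocytes. Odf3, of the outer dense fibres, had 271 and 272 against 314 and 312 (-0.20), and Ropn1, of the fibrous sheath, 688 and 704 against 785 and 774 (-0.16). Prm3 (-0.19), H1fnt (-0.27), Akap3 (-0.13) and Gapdhs (-0.17) fell too. Odf2 (-0.11) and Tssk6 (-0.26) completed the calls, and Tssk6 was at 0.27 in cells with the late spermatocyte set second. Odf2 had 1622 CPM in late spermatocytes and 1874 in early round spermatids, and Tssk6 had 67.5 and 68.3 CPM, with 26.2% of its UMIs in called doublets.

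Axonemal genes included calls in both directions: 3 of 39 rose and 1 fell (median 0.03). The share called was 10.3%, against 3.94% of all tested genes, and the 1 that fell is near the 2.70% that fell over all tested genes. Rsph1, a radial spoke head gene, had 1584 and 1589 CPM in HFD and 1454 and 1432 in ND (0.14). Ccdc39, a ruler of axonemal repeats, had 223 and 216 against 183 and 190 (0.23), and Dnah8, an outer dynein arm heavy chain gene, 257 and 256 against 228 and 222 (0.19). These 3 are highest in spermatocytes. Tekt2, highest in late round spermatids, had 928 and 910 against 1014 and 984 CPM (-0.12).

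Among 17 tested sex-linked spermatid genes and their relatives, 3 fell and 0 rose (median -0.17): Cypt1 (-0.16), Cypt3 (-0.17) and Hsfy2 (-0.17), whose symbol here lies on chromosome 1. In this list 17.6% were called, where 3.94% of all tested genes were called and 2.70% fell. Cypt1 and Cypt3 are highest in elongating and Hsfy2 in late round spermatids. On the whole X chromosome, 15 of 527 tested genes fell and 1 rose. The share called was 3.04%, below the 3.94% over all tested genes, and the median was -0.07. On the Y chromosome, 0 of 136 genes were called by edgeR, DESeq2 or limma, and 14, 1 and 14 had an unadjusted p under 0.05. Over all tested genes 3002 of 17117, 1065 of 31888 and 3013 of 17117 had one in the same tools.

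Of 25 chromatoid body and piRNA genes, 1 fell, Grip1 (-0.20), and 0 rose, which is near the 3.94% called over all tested genes. Gtsf1, a piRNA pathway zinc finger gene, had 1320 and 1327 CPM in HFD and 1420 and 1398 in ND and was not called. Of 25 tested meiotic prophase genes 0 were called by edgeR, DESeq2 or limma. Without adjustment 5, 0 and 5 of them had a p under 0.05 in these tools. Over all tested genes such a p was found for 3002 of 17117, 1065 of 31888 and 3013 of 17117. Of 17 apoptosis genes 0 were called by the same tools, and 3, 1 and 3 had an unadjusted p under 0.05.

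Of 29 glycolysis genes, 5 fell and 1 rose (20.7% called, against 3.94% of all tested genes). The glucose transporter gene Slc2a3 had 157 and 169 CPM in HFD and 136 and 135 in ND (0.27), and it is highest in pachytene cells. The lactate and pyruvate transporter gene Slc16a7 had 259 and 253 against 278 and 302 CPM (-0.18), Hk1, hexokinase 1, 268 and 270 against 294 and 295 (-0.13), and Gpi1 (-0.30), Aldoa (-0.17) and the sperm enzyme gene Gapdhs fell too. Ldhc, the testis lactate dehydrogenase, had 7944 and 7932 against 8010 and 7867 CPM.

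Of 38 tested lipid genes, 3 fell and 1 rose (10.5% called, against 3.94% of all tested genes). Cyp51, of cholesterol synthesis, had 57.7 and 62.1 CPM in HFD and 74.3 and 73.4 in ND (-0.30). Plin2, which coats lipid droplets, had 66.6 and 62.3 against 74.1 and 75.1 (-0.21), and Dgat2, the last enzyme of triglyceride synthesis, 132 and 139 against 153 and 153 (-0.17). All 3 are highest in late round spermatids. Fdft1 (329 and 341 against 335 and 330) was not called. Fabp3, the fatty acid binding protein that rose (43.4 and 36.6 against 31.5 and 34.3; 0.29), had 34.6% of its UMIs in called doublets and a ratio of -0.36 with a gate above 2. The median of the list was -0.02 and was nearer 0 without normalisation factors.

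The shares called in the remaining lists were 6.90% of antioxidant, 16.7% of ER and 7.89% of ubiquitin and proteasome genes, against 3.94% of all tested genes. The antioxidant genes that fell, 2 of 29, were the spermatid thioredoxin gene Txndc2 (54.2 and 56.3 against 71.1 and 71.8 CPM; -0.37) and Prdx4 (-0.17), and 0 rose. Of 24 ER genes, the chaperone genes Hspa5 (216 and 215 against 191 and 192; 0.17) and Hsp90b1 (256 and 272 against 237 and 233; 0.17) rose, while the germ cell chaperone genes Calr3 (-0.37) and Pdilt (-0.16) fell. Hspa5 and Hsp90b1 have higher levels in late spermatocytes, and Calr3 and Pdilt in late round spermatids. In cells with the late spermatocyte set second, Hspa5 was at -0.0012 and Hsp90b1 at -0.0043. Of 38 ubiquitin and proteasome genes, Psmg2 rose, and Rnf133 (-0.23) and Ube2b (-0.12), both of the ubiquitin pathway, fell. Over all lists, 51 genes were called, and this was 24 without HFD 2, 84 without ND 1 and 81 without ND 2.

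**Figure D5:**
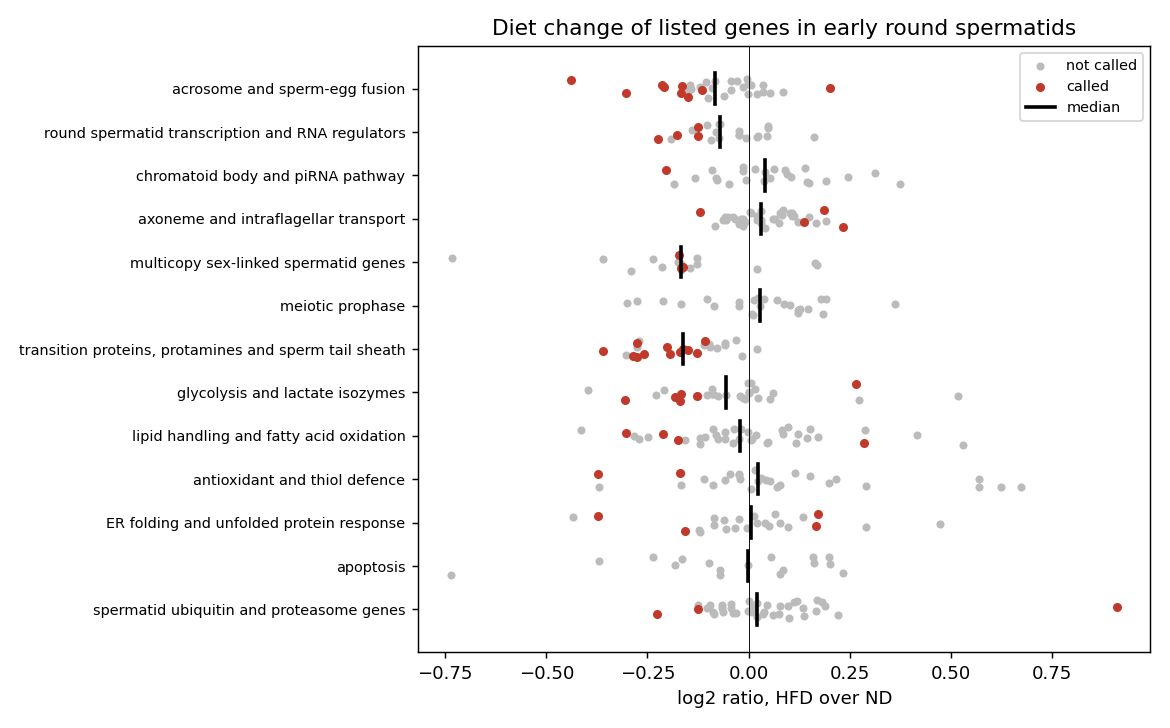
Log2 ratio of HFD over ND for the tested genes of 13 lists in early round spermatids; red points were called, grey points were not, and black bars are list medians. Called genes of the protamine and tail list (12 of 25) all lie below 0, with a list median of -0.16, and Psmg2 at 0.91 is the point farthest to the right.

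Whether a gene's diet change differed between early round spermatids and a neighbouring class was tested as an interaction. Against late round spermatids, edgeR called 744 of 18668 genes (3.99%), with the lower ratio in early round spermatids for 716 (3.84%) and the higher one for 28 (0.150%). Against elongating spermatids it called 401 of 18301 (2.19%), 361 lower (1.97%) and 40 higher (0.219%). Against late spermatocytes it called 92 of 18732 (0.491%), 23 lower (0.123%) and 69 higher (0.368%). Itsn2 had a ratio of -0.43 in early round and 0.04 in late round spermatids, where it had 198 to 210 CPM (difference -0.51; SE 0.07; edgeR adjusted p = 2.8e-06). Prss55, a sperm serine protease gene, had -0.36 and 0.07. Both genes were called lower in HFD in early round spermatids, and their small positive ratios in late round ones were not called.

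The interaction counts moved with the model, the gate and the libraries. Without the library factor they were 103, 10 and 1 against late round spermatids, elongating spermatids and late spermatocytes, and 8 of the 12 named gene and class pairs were no longer called. With a gate above 2 they were 8, 134 and 39 in the same order. Without HFD 1 they were 396, 364 and 343, without HFD 2 466, 79 and 268, without ND 1 354, 212 and 60, and without ND 2 616, 225 and 3.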

How the data were processed

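Droplet 3′ libraries (10x Chromium, version 3 chemistry per the labels' protocols) of mouse testis were used, 2 per diet. The authors deposited raw UMI counts per gene and barcode, not normalised, with software version 3.0.2 named per the file headers. The build is mm10 per the submitters' processing notes, and the aligner and annotation are not given in the sources used here. All 55450 identifiers matched GENCODE M21 (GRCm38), which gave chromosomes and coordinates.

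Cells were scored on log1p of counts per 10000 and assigned as described. The members, gene lists and naming rule were chosen with earlier results of these data known. Counts were summed per library and class. The diets were tested with the quasi-likelihood test of edgeR 4.0.16 in R 4.3.3, after filterByExpr and with TMM factors, and the interaction fits held the library as a factor. Benjamini-Hochberg adjustment covered all tested genes, at 0.05. SE is the size of the log2 ratio over the square root of F. Log2 ratios are HFD over ND. Genes of at least 20 CPM past the threshold, with both HFD libraries on 1 side of both ND libraries, were ranked by size, and up to 12 per direction were named. Up to 4 per neighbouring class, up to 12 profile genes of at least 100 CPM, all called list genes and the 3 highest of each list were eligible too. Per-library medians and shares of UMIs were compared by exact permutation tests.

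Alternatives used DESeq2 1.42.0, limma 3.58.1 on log2(CPM + 1), Scrublet in scanpy 1.11.5 (expected doublet rate 0.1), other gates, thinning to 2000 UMIs and left-out libraries. Thinned counts served only to assign cells, and gene sums kept the full counts. The tests by second set, of members with at least 5000 UMIs, without shared barcodes, and of the X and Y shares and the per-cell medians with each library left out were added after seeing the data. Scripts were tested on simulated data.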

Additional observations from a re-analysis of the deposited data

Results flagged for a closer look

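The diet change of 12 gene and class pairs differed between early round spermatids and a neighbouring class by the edgeR interaction test, and these are the pairs the naming rule selects. Differences are the log2 ratio (HFD over ND) in early round spermatids minus that in the other class.

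Against late spermatocytes, Msr1, a scavenger receptor gene, differed by -1.04, with 31.8, 31.5, 41.1 and 38.9 CPM in early round spermatids of HFD 1, HFD 2, ND 1 and ND 2 and 5.15, 4.58, 2.24 and 3.89 CPM in late spermatocytes. Gm3476 differed by 0.71, Gm10375 by 0.68 and Ssxb1 by 0.66. These 3 had log2 ratios of 0.12, -0.02 and 0.07 in early round spermatids, none of them called, and -0.61, -0.72 and -0.60 in late spermatocytes. Gm3476 and Gm10375 belong to clusters of related copies on chromosome 14, so their counts are uncertain.

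Against late round spermatids, Itsn2 differed by -0.51, Prss55 by -0.46 and Tex37 by -0.45. Tex37 belongs to the elongating set of the gate, so its value is only a description. Lcn2 differed by 0.61.

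Against elongating spermatids, Lcn2 differed by 1.03, Gstm1, a glutathione transferase gene, by 0.76 and Fabp3 by 0.76. Called doublets held 40.2%, 42.7% and 34.6% of the UMIs of these 3 genes in early round spermatids. With doublets left out the differences were -0.12, -0.21 and -0.37. Prpf31, a splicing factor gene, differed by -0.55, with 26.3, 23.9, 29.0 and 29.2 CPM in early round and 9.22, 11.3, 9.05 and 7.60 CPM in elongating spermatids.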

How the results depend on the processing

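The lower share of early round spermatids kept its direction in all alternatives. It kept its edgeR call in those that used every library, and the exact permutation test gave p = 0.33 (log2 ratio -0.29). Ratios were -0.28 to -0.31 when single libraries were left out, which leaves 1 library in a diet. The 675 diet calls became 276 with DESeq2, 2 without the filter on low counts, 2 beyond 1.5-fold, 441 with a margin of 0.5, 291 after thinning, 27 with a gate above 2, and 27 and 5 in cells with the late round or late spermatocyte set second; leaving out single libraries gave 331 to 1491. Fewer cells entered the last 5 of these settings, and otherwise the cause was not tested. All 675 kept their sign with DESeq2, limma and no normalisation factors, 666 of 671 with a gate above 2, 673 of 674 and 616 of 661 in the second-set splits. List calls went from 51 to 30 with DESeq2 and to 24 to 84 without single libraries. With the label number as a replicate block there were 1098 diet calls, 671 of them shared with the 675. Deviations of same-numbered libraries correlated at 0.0123 over 5744 genes. With 2 libraries per diet this is a single contrast, so it cannot show whether same-numbered libraries shared a batch. The labels give no batch.

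Interaction calls against late spermatocytes, late round and elongating spermatids were 92, 744 and 401. They were 1, 103 and 10 with no library factor, 39, 8 and 134 with a gate above 2, and 3 to 343, 354 to 616 and 79 to 364 without single libraries, with 30 against late spermatocytes once doublets were left out. Signs reversed with a gate above 2 for Lcn2 (-0.65), Fabp3 (-0.36) and Lurap1 (0.016), and for the differences of Lcn2 (-0.92 from late round, -0.81 from elongating), Gstm1 (-0.82) and Fabp3 (-0.88). With doublets left out the differences from elongating spermatids were -0.12 for Lcn2, -0.21 for Gstm1 and -0.37 for Fabp3. In cells with the late spermatocyte set second Tssk6 had 0.27, Hspa5 -0.0012 and Hsp90b1 -0.0043, and with the late round set second Lurap1 had 0.00028. Leaving out single libraries gave diet differences of -291.75 to 1417.25 in median UMIs and of -18.75 to 248.25 in median genes, the negative values without HFD 1, against 562.75 and 114.75, and with a gate above 2 the mitochondrial difference was -2.0e-05 percentage points against 0.0050. X and Y share differences kept their sign with doublets left out, with a gate above 2 and in both second-set splits. Where the libraries of the diets do not overlap, as for the share of early round spermatids, the X and Y shares and all 675 calls, leaving out 1 library cannot turn a sign. The number of libraries limits the precision: with 2 against 2 no exact test can reach 0.05.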
